A study of Homo sapiens with 6 samples.

Results

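Tensins and the scaffold proteins of focal adhesions were followed in A549 cells after knock-down of KMT9α. The 10 genes are TNS1, TNS3, TNS4, TLN1, VCL, PXN, ZYX, PTK2, ILK and DLC1, out of 23180 gene symbols with counts. They were chosen by symbol with earlier results of the same RNA-Seq comparison known, the value of TNS3 among them, and each gene is represented by the transcript with the largest estimated count summed over the 6 samples. The difference between the groups was therefore one of the measured values that chose the genes, and it is described for them here with no p-value of their own. Where the numbers of them past a threshold are given, they stand beside the share of all genes past it and support nothing. A549 is an established human cell line from a lung adenocarcinoma, which the labels call wild type. Of the 6 samples, 3 were transfected with siControl and 3 with siKMT9α#1, all at passage 11, and RNA was taken 3 days after transfection. The labels call the samples biological replicates and do not state how the cultures were separated. KMT9 is a histone methyltransferase made of KMT9α, encoded by N6AMT1, and KMT9β, encoded by TRMT112. The study set out to find what KMT9 does in lung cancer, with RNA-Seq, proteomics and cell assays. Only the RNA-Seq of A549 cells is used here.

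Focal adhesions are the sites at which integrins in the plasma membrane are coupled to actin stress fibres inside the cell. Talin binds the tail of the integrin β chain and actin, and vinculin reinforces that bond. Paxillin and zyxin are LIM domain scaffolds, focal adhesion kinase (PTK2) is the main tyrosine kinase of the site, and ILK is a pseudokinase that joins integrins to actin together with PINCH and parvin proteins. Tensins bind the integrin tail in mature, fibrillar adhesions, and TNS4, also called cten, lacks the actin-binding region of its relatives. DLC1 is a GTPase-activating protein that switches off RhoA and is held at adhesions by tensins.

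Promoter sequences are shown for 3 members, chosen to span the directions described further on. TNS3 had the largest positive and ILK the largest negative log2 fold change of the 10 genes, and VCL had the highest level per kb of transcript and, of these 3, the only TEAD motif in the window. Each window runs from 250 bases before to 50 bases after a RefSeq transcription start on build GRCh38.p14, 5′ to 3′ on the gene's own strand, at chr7:47582062-47582361 on the minus strand for TNS3, chr11:6603524-6603823 on the plus strand for ILK and chr10:73997866-73998165 on the plus strand for VCL. Capitals mark the motif GGAATG, which the TEAD factors bind.
TNS3: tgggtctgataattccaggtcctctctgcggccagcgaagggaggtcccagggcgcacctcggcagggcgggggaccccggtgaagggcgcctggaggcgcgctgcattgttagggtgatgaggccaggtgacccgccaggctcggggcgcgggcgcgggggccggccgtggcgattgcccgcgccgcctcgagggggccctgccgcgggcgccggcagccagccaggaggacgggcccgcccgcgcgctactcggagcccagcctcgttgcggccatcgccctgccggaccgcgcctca
ILK: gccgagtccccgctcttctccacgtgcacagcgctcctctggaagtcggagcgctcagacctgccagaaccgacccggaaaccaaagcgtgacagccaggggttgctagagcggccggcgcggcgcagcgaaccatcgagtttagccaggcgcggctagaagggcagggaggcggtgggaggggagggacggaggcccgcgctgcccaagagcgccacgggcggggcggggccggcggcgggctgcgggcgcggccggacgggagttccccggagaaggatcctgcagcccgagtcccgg
VCL: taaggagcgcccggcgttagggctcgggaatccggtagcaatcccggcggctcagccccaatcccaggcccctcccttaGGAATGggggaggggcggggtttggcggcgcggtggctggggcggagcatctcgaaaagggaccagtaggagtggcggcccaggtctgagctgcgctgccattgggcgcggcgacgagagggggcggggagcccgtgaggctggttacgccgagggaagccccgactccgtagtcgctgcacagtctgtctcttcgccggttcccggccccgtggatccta
The RefSeq table held 14 promoters of 7 members, and TNS4, PTK2 and DLC1 were not in it. GGAATG on either strand was found in 4 of the 14 windows, against 14.03% of the 35116 promoters of the same length. Some of the windows belong to the same gene, so they do not stand for separate genes. Of the 6 windows at the start of an annotated transcript, only that of VCL holds it, 171 bases before the start. The rest lie at other starts, 217 and 98 bases before those of TNS1 and 67 before that of PXN. The AP-1 motif TGACTCA, read on the other strand as TGAGTCA, was found in 0 of 14 windows against 4.95% of all promoters, and the CArG box, the motif of serum response factor, in 0 of 14 against 1.29%. CpG dinucleotides differed widely among the 14 windows, against a median of 14 over all promoters. The 6 windows at the start of an annotated transcript hold 50 in PXN, 38 in TNS3, 37 in ILK, 32 in ZYX, 31 in TLN1 and 30 in VCL. Those at other starts hold 29, 7, 7, 7 and 6 in TNS1, 20 and 10 in TNS3 and 3 in PXN. A motif match describes the letters in the window, and binding was not measured.

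On the transcripts used, the samples held 13740100.5 to 19832398.5 counts each, and 13877 genes passed edgeR's filter on low counts. Levels are given as CPM, in which counts are divided by the library size after scaling with edgeR's TMM factors. N6AMT1, the target of the siRNA, was at 10.2, 10.9 and 11.4 CPM with siControl and at 2.87, 3.22 and 3.35 CPM with siKMT9α#1, so that the groups did not overlap. Of the epithelial markers, KRT8, KRT18, KRT19 and EPCAM were lower and CDH1 higher after knock-down, with a summed level of all 5 of 3214 to 3576 CPM against 1725 to 1816 CPM, and EPCAM was at most at 4.25 CPM in any sample. The summed levels of 6 fibroblast markers (6.92 to 8.71 against 3.22 to 3.92 CPM, COL1A2 at 0), 3 endothelial markers (0.47 to 0.80 against 0.08 to 0.16 CPM) and 3 leukocyte markers (3.22 to 3.77 against 1.66 to 2.30 CPM, CD3E at 0) were low and also lower after knock-down. CD14 made up nearly all of the leukocyte sum, and COL1A1 and LUM most of the fibroblast sum. COL3A1 was higher in every knock-down sample than in any control, at most at 0.23 CPM. The part of these shifts in the values that follow was not tested. In bulk RNA, fewer cells that express a gene and less of its mRNA per cell cannot be told apart.

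All 10 genes passed the filter on low counts. At the study's threshold, a P below 1e-08 with a log2 fold change over 0.26 in size, 4 of the 10 were higher after knock-down (TNS3, DLC1, PXN and PTK2) and 0 were lower. TNS3, DLC1 and PXN stayed past it under all 16 alternatives. PTK2 missed it under 8 of them, which were the library size alone, the replicate block, GC and length offsets with and without the block, and the fits without siControl replicate 2, siControl replicate 3, siKMT9α#1 replicate 1 or siKMT9α#1 replicate 2. With the offsets TLN1 and VCL were past it as lower, and without the filter on low counts ILK was. In the fit used here, which does not give the study's own calls, the same threshold is passed by 24.2% of the 13877 genes tested, 13.5% as higher and 10.7% as lower. By edgeR's quasi-likelihood test at an adjusted p under 0.05, 6 of the 10 were called higher and 3 lower, against 75.6% of all genes called, 37.1% higher and 38.5% lower. In 9 of the 10 the groups did not overlap in any sample, which held for 77.0% of all genes. Since the genes were chosen with the comparison known, nothing is read from these counts. The median log2 fold change of the 10 genes was 0.46, beside -0.01 over all genes tested, and the median size of a log2 fold change over all genes was 0.47.

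**Figure D1:**
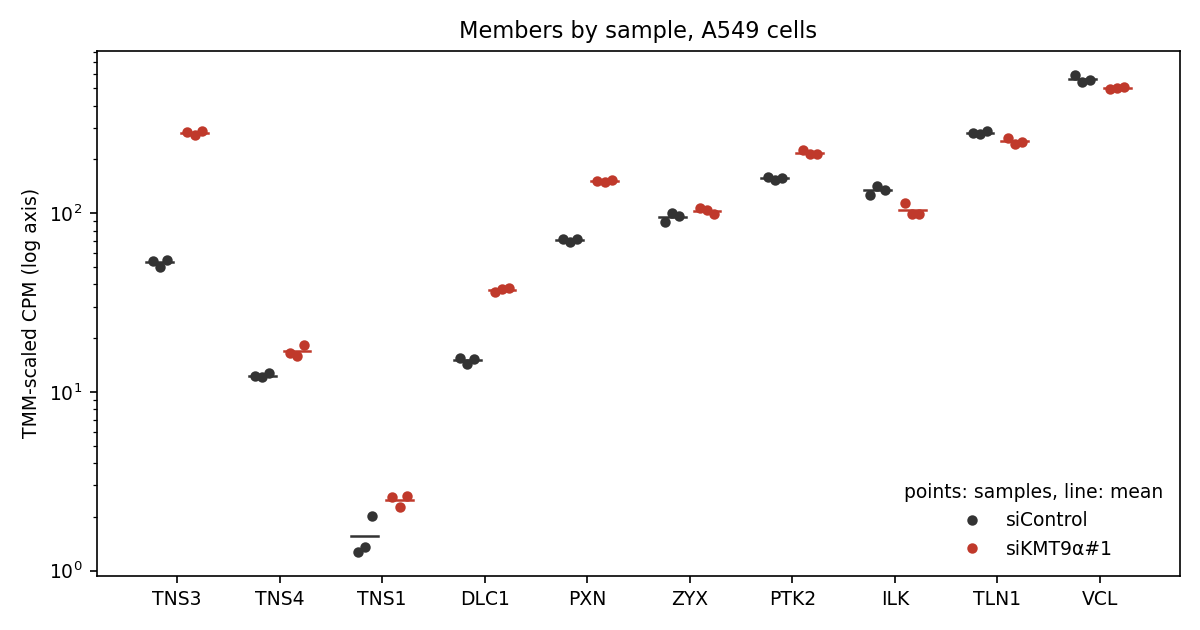
TMM-scaled CPM (log axis) of the 10 genes in each of the 3 siControl samples (black) and 3 siKMT9α#1 samples (red), with the group mean as a line. The groups are apart in 9 genes and overlap in ZYX, and the widest gap is that of TNS3, with means of 53.0 and 281.9 CPM.

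Of the tensins, TNS3 differed most. TNS3 links integrin tails to actin and carries an SH2 domain that binds phosphorylated partners. It is listed as transcript NM_022748 on chromosome 7 of hg19 from 47314752 to 47621742, and the GRCh37 annotation places its 31 exons on the minus strand. TNS3 was at 54.2, 50.1 and 54.7 CPM in the controls, replicates 1 to 3 in that order, and 284.9, 272.2 and 288.6 CPM after knock-down. Every knock-down sample lay far above every control sample, and the values within a group lay close together. The mean went from 53.0 ± 2.49 CPM (SD, n = 3) to 281.9 ± 8.58 CPM (SD, n = 3), which is 2.41 on the log2 scale with a standard error of 0.05, beside a median standard error of 0.08 over all genes.

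TNS4 differed in the same direction by less. This tensin holds the SH2 and integrin-binding domains without the actin-binding part, and it is listed as NM_032865 on chromosome 17 from 38632080 to 38657854, with 13 annotated exons on the minus strand. TNS4 was at 12.2, 12.1 and 12.7 CPM with siControl and at 16.5, 15.9 and 18.3 CPM with siKMT9α#1. The lowest knock-down sample lay above the highest control sample. From 12.4 ± 0.34 to 16.9 ± 1.22 CPM (SD, n = 3 each), the log2 fold change was 0.46 with a standard error of 0.09.

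TNS1, the founding member of the family, had the lowest counts of the 10 genes. It is listed as NM_022648 on chromosome 2 from 218664512 to 218808796 (minus strand). Its raw estimated counts were 24, 22 and 39 with siControl and 34, 31 and 50 with siKMT9α#1, or 1.27, 1.36 and 2.03 CPM against 2.57, 2.27 and 2.62 CPM. The groups did not overlap, but siControl replicate 3 lay nearer to the knock-down samples than to the other controls. TNS1 went from 1.55 ± 0.41 to 2.48 ± 0.19 CPM (SD, n = 3 each), and its log2 fold change of 0.67 had the largest standard error of the 10 genes, 0.21. Without siControl replicate 3 it was 0.93, and with offsets for GC content and transcript length it was 0.33.

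The remaining tensin, TNS2, is not among the 10 genes. TNS2 was at 3.50, 3.33 and 3.17 CPM with siControl and at 3.85, 2.27 and 3.14 CPM with siKMT9α#1, and the groups overlapped. Its log2 fold change was -0.11 (standard error 0.18, with adjusted p = 0.576 by the quasi-likelihood test of edgeR), and without siKMT9α#1 replicate 2 it was 0.048. Per kb of transcript, TNS3 made up 64.3 ± 0.73% (SD, n = 3) of the tensin CPM with siControl and 88.1 ± 0.52% (SD, n = 3) with siKMT9α#1. The share of TNS4 went from 28.0 ± 0.64% to 9.85 ± 0.44% although its own level was higher after knock-down. The shares of TNS2 went from 6.37 ± 0.44% to 1.51 ± 0.36% and those of TNS1 from 1.39 ± 0.33% to 0.57 ± 0.02% (SD, n = 3 each).

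**Figure D2:**
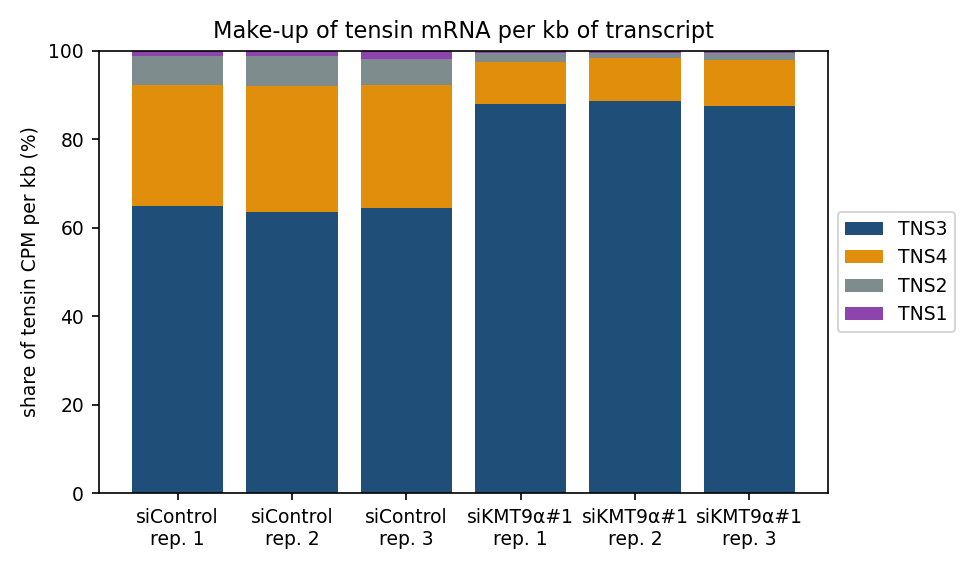
Share (%) of each tensin in the summed tensin CPM per kb of transcript, 1 stacked bar per sample. TNS3 fills 63.5 to 64.9% of the bar in the siControl samples and 87.6 to 88.6% in the siKMT9α#1 samples, with TNS4 taking most of the rest.

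DLC1 and its relatives bind tensins and act on RhoA. DLC1 is listed as NM_006094 on chromosome 8 from 12940872 to 12990809 (minus strand), and it was at 15.5, 14.3 and 15.3 CPM with siControl and at 36.3, 37.6 and 38.3 CPM with siKMT9α#1. All 3 knock-down samples lay above all 3 controls with a wide gap. The mean went from 15.1 ± 0.64 to 37.4 ± 1.04 CPM (SD, n = 3 each), which is 1.31 on the log2 scale with a standard error of 0.07. STARD13, a relative of DLC1 with the same RhoGAP activity, rose from 8.15 ± 1.45 to 20.8 ± 0.96 CPM (log2 fold change 1.36, adjusted p = 7.31e-10, standard error 0.11, separate groups). STARD8, the other relative, had 2 to 7.5 counts per sample and did not pass the filter.

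PXN encodes paxillin, the adaptor to which focal adhesion kinase and vinculin bind. It is listed as NM_001243756 on chromosome 12 from 120648242 to 120703574, with 15 annotated exons on the minus strand, and its span overlaps the antisense gene PXN-AS1. PXN was at 71.8, 69.0 and 71.5 CPM with siControl and at 152.0, 149.2 and 153.8 CPM with siKMT9α#1. The groups were far apart against a spread of a few CPM within each. The log2 fold change was 1.10 with a standard error of 0.05, from 70.8 ± 1.52 to 151.7 ± 2.30 CPM (SD, n = 3 each). Whether the counting used the strand is not given in the sources used here, so reads of PXN and of PXN-AS1 cannot be told apart. The same limit holds where the spans of ZYX and EPHA1, ILK and TAF10, and TLN1 and CREB3 overlap.

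ZYX encodes zyxin, which brings Ena/VASP proteins to stress fibres and adhesions. It is listed as NM_003461 on chromosome 7 from 143078360 to 143088206, with 10 annotated exons on the plus strand, in a span shared with EPHA1. ZYX was at 89.0, 100.7 and 97.0 CPM with siControl and at 106.3, 104.1 and 98.8 CPM with siKMT9α#1. It was the one member whose groups overlapped, since siKMT9α#1 replicate 3 lay below siControl replicate 2. Its log2 fold change of 0.11 (standard error 0.05) was 0.00 with the library size alone and 0.29 with GC and length offsets, so the value depends on the scaling.

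PTK2 encodes focal adhesion kinase, which phosphorylates paxillin and p130Cas. It is listed as NM_001199649 on chromosome 8 from 141668481 to 142011412, with 36 annotated exons on the minus strand. PTK2 was at 160.3, 153.6 and 157.4 CPM with siControl and at 225.1, 213.5 and 213.7 CPM with siKMT9α#1. The groups were separate, from 157.1 ± 3.35 to 217.5 ± 6.65 CPM (SD, n = 3 each). The log2 fold change was 0.47 with a standard error of 0.05, and 0.30 with GC and length offsets. PTK2B, its closest relative, was at 14.8 ± 0.71 and 16.6 ± 0.46 CPM (log2 fold change 0.16, adjusted p = 0.0793, standard error 0.08) in groups that did not overlap.

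ILK had the largest negative difference of the 10 genes. It is listed as NM_004517 on chromosome 11 from 6624964 to 6632099, with 13 annotated exons on the plus strand, and its span overlaps TAF10. ILK was at 126.4, 141.5 and 134.7 CPM with siControl and at 113.8, 98.9 and 99.3 CPM with siKMT9α#1. The highest knock-down sample, replicate 1, lay below the lowest control, also replicate 1, by less than the gap between the means. From 134.2 ± 7.56 to 104.0 ± 8.49 CPM (SD, n = 3 each), the log2 fold change was -0.37 with a standard error of 0.06, and -0.20 with GC and length offsets.

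TLN1 and VCL, the talin and vinculin genes that form the mechanical link, were both slightly lower after knock-down. TLN1 is listed as NM_006289 on chromosome 9 from 35697334 to 35732392, with 57 annotated exons on the minus strand, in a span shared with CREB3. It was at 279.3, 278.4 and 289.5 CPM with siControl and at 263.7, 245.3 and 249.8 CPM with siKMT9α#1. The groups were separate, with a log2 fold change of -0.16 (standard error 0.05) that was -0.26 with the library size alone and -0.45 with GC and length offsets. VCL is listed as NM_014000 on chromosome 10 from 75757872 to 75879914, with 22 annotated exons on the plus strand. It was at 596.5, 545.2 and 553.0 CPM with siControl and at 495.5, 499.9 and 510.0 CPM with siKMT9α#1. The knock-down samples lay close together below the controls, of which replicate 1 was the highest. The log2 fold change of VCL was -0.17 (standard error 0.05), -0.28 with the library size alone, -0.41 with GC and length offsets and -0.11 without siControl replicate 1. TLN2, the second talin gene, rose from 20.4 ± 2.03 to 27.5 ± 3.18 CPM (log2 fold change 0.43, adjusted p = 0.000233, standard error 0.09, separate groups). With GC and length offsets its call was lost (0.02, adjusted p = 0.867), and over all alternatives its adjusted p ran from 4.57e-08 to 0.867.

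**Figure D3:**
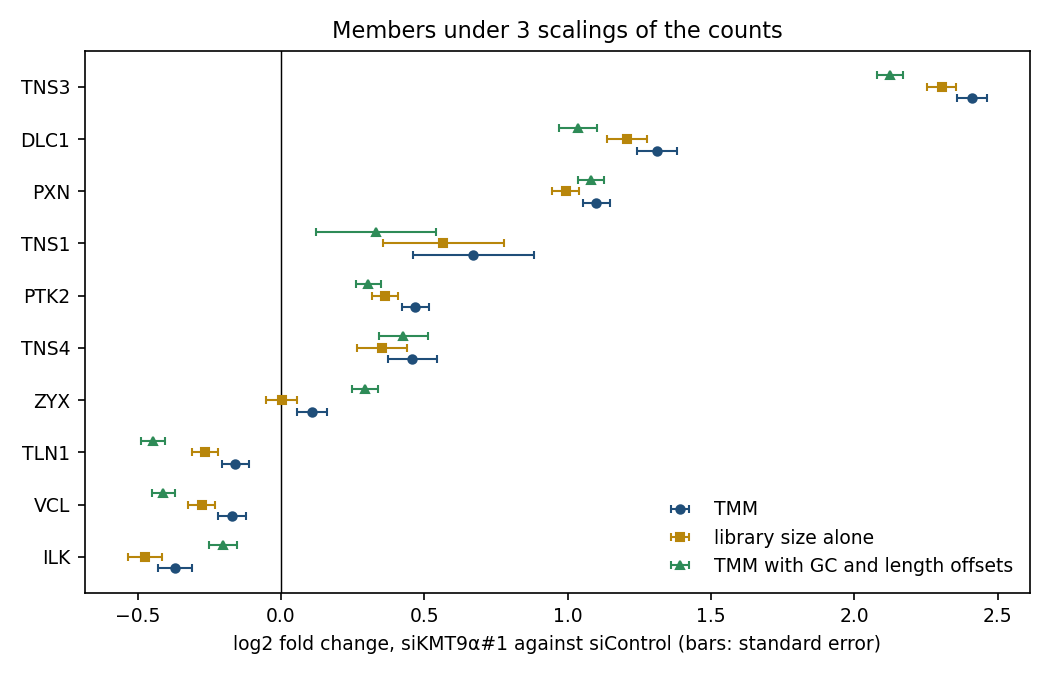
log2 fold change of each of the 10 genes, siKMT9α#1 against siControl, with its standard error as a bar, under TMM scaling (circles), the library size alone (squares) and TMM with GC and length offsets (triangles). TNS3, DLC1 and PXN stay at or above 0.99 under all 3 scalings and ILK, TLN1 and VCL stay below 0, while ZYX moves between 0.00 and 0.29.

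Since 6 of the genes have more than 1 listed transcript, every transcript was also fitted on its own. In VCL, PXN, ZYX, PTK2 and ILK the other transcripts gave log2 fold changes within 0.0025 of the transcript shown, and in DLC1 within 0.014, as transcripts of 1 gene share most of their reads. Transcript NM_024767 of DLC1 was listed at 0 counts in every sample.

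Levels of different genes were compared only as CPM per kb of the deposited transcript length. With siControl the order ran from VCL at 103.8 ± 5.07 and ILK at 75.7 ± 4.27 through ZYX at 41.8 ± 2.62, PTK2 at 34.7 ± 0.74, TLN1 at 33.9 ± 0.74 and PXN at 18.6 ± 0.40 to TNS3 at 7.01 ± 0.33, TNS4 at 3.05 ± 0.08, DLC1 at 2.50 ± 0.11 and TNS1 at 0.15 ± 0.04 CPM per kb (SD, n = 3 each). The values of PTK2 and TLN1 overlapped between samples, and all other neighbours in that order were separate. With siKMT9α#1, VCL at 92.2 ± 1.37 and ILK at 58.7 ± 4.79 still led, and PTK2 at 48.0 ± 1.47, ZYX at 45.0 ± 1.68, PXN at 39.8 ± 0.60 and TNS3 at 37.3 ± 1.14 came above TLN1 at 30.4 ± 1.15 CPM per kb, with every neighbour separate. TNS3 thus passed from below TLN1 to above it. DLC1 at 6.21 ± 0.17, TNS4 at 4.17 ± 0.30 and TNS1 at 0.24 ± 0.02 CPM per kb closed the order, so that DLC1 and TNS4 changed places.

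**Figure D4:**
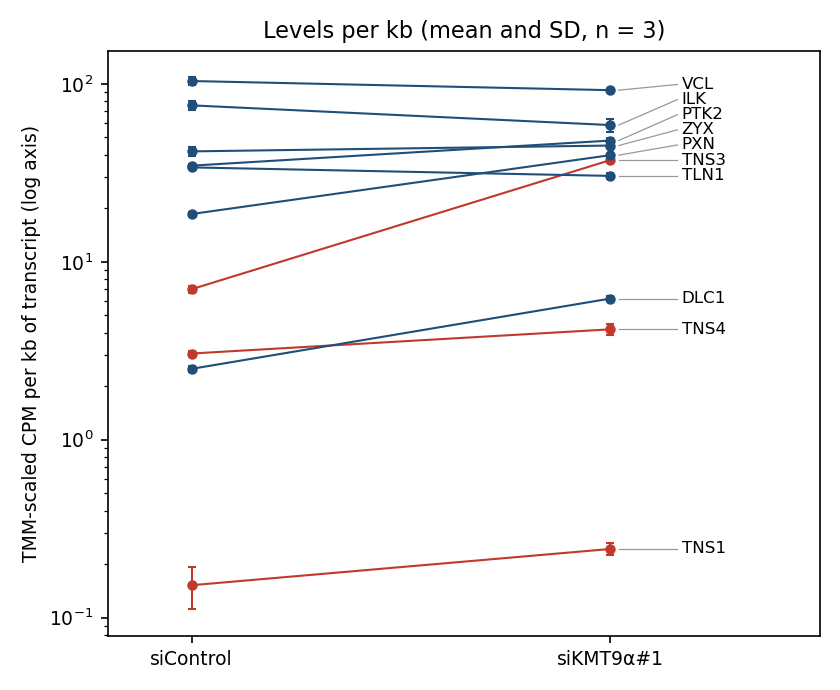
Mean TMM-scaled CPM per kb of transcript (log axis) of the 10 genes with siControl and siKMT9α#1, with SD bars over 3 samples each, tensins in red and the other genes in blue. TNS3 climbs from 7.01 to 37.3 CPM per kb, past TLN1, while VCL and ILK stay the highest.

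The guide strand of siKMT9α#1 pairs through its bases 2 to 8 with the 7-mer ACATTCA. The annotated 3′ UTRs of 0 of the 10 genes hold it, against 14.1% of the 12219 genes tested that have a 3′ UTR. Of 66 other focal adhesion genes, 6 hold it, and they are named here for the site alone. LIMD1 holds 2 copies and had a log2 fold change of -1.23. The others hold 1 copy each, with log2 fold changes of -0.49 for FERMT1, -0.41 for MYH10, -0.22 for PPP1R12A, 0.06 for PARVB and 0.12 for ARHGAP5, the last 2 with overlapping groups. Of the cell type markers, EPCAM and LUM hold 1 copy each, with log2 fold changes of -2.76 and -3.45. CDH5 holds 1 and DCN 2, and neither passed the filter on low counts. The part of the site in these values was not tested.

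The other genes of the pathway were taken from lists of 71 genes, written with earlier results of these data known, of which 66 passed the filter. At the study's threshold 14 of the 66 were higher and 5 lower, which is 28.8% beside 24.2% of all genes. At an adjusted p under 0.05, 32 were higher, 23 lower and 11 neither, which is 83.3% beside 75.6%. Their median log2 fold change was 0.13, beside -0.01 over all genes. Of all genes, 13.5% were higher and 10.7% lower at the study's threshold, and 37.1% and 38.5% at an adjusted p under 0.05. As the lists were written with results known, the counts by list that follow are a description and nothing is read from them.

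Among 10 further linkers of integrins to actin, 2 were higher and 0 lower at the study's threshold in edgeR (3 and 1 with DESeq2). In edgeR that is 20%, beside 24.2% of all genes. At an adjusted p under 0.05, 6 were higher and 2 lower, which is 80% beside 75.6%, with a median log2 fold change of 0.17. Both that passed the study's threshold bind talin at the rim of adhesions. KANK1 rose from 7.43, 5.93 and 7.64 CPM to 56.4, 56.8 and 54.8 CPM, a log2 fold change of 2.99 (adjusted p = 1.63e-16, standard error 0.08). KANK2 rose from 13.1 ± 0.76 to 27.4 ± 1.12 CPM (SD, n = 3 each), by 1.06 on the log2 scale (adjusted p = 2.84e-10, standard error 0.08). Both talin-binding KANK genes were higher in every knock-down sample than in any control, and TLN1 itself was lower in every one.

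Of the 10 LIM domain adaptors besides PXN and ZYX, 2 were higher and 2 lower at the study's threshold, which is 40% beside 24.2%. At an adjusted p under 0.05, 6 were higher and 4 lower (median 0.21), which is 100% beside 75.6% of all genes. In the zyxin family, LPP rose from 45.0 ± 2.18 to 131.2 ± 7.75 CPM (log2 fold change 1.55, adjusted p = 1.02e-14, standard error 0.06) while TRIP6 fell from 66.9 ± 3.02 to 48.4 ± 4.32 CPM (-0.47, adjusted p = 1.57e-06, standard error 0.06). AJUBA, which like LIMD1 holds back the Hippo kinases, rose by 0.73 on the log2 scale (adjusted p = 1.26e-10, standard error 0.05). LIMD1 had a log2 fold change of -1.23 (adjusted p = 1.67e-13, standard error 0.06). PDLIM7 had one of -0.95 (adjusted p = 7.40e-09, standard error 0.09). Of the paxillin relatives, LPXN rose from 4.40 ± 0.33 to 8.20 ± 0.38 CPM (0.90, adjusted p = 1.51e-06, standard error 0.12). TGFB1I1, which encodes HIC-5, was at 11.0 ± 0.90 and 12.9 ± 0.39 CPM (0.23, adjusted p = 0.0339, standard error 0.09), a call lost under 6 of 16 alternatives with adjusted p from 3.96e-05 to 0.243. TGFB1I1 lost it with DESeq2 (0.0827), the library size alone (0.243), the replicate block (0.0502), and without siControl replicate 1 (0.0776), siControl replicate 3 (0.0884) or siKMT9α#1 replicate 1 (0.0841). PDLIM7 missed the study's threshold with the replicate block, with GC and length offsets with or without it, and without siControl replicate 2, siKMT9α#1 replicate 1 or siKMT9α#1 replicate 2. In all of these LIM genes the groups did not overlap.

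Of 11 further genes of signalling through focal adhesion kinase, 3 were higher and 1 lower at the study's threshold. That is 36.4%, beside 24.2% of all genes. At an adjusted p under 0.05, 8 were higher and 2 lower, which is 90.9% beside 75.6%, with a median log2 fold change of 0.42. NEDD9, a scaffold of the p130Cas family, rose from 68.4 ± 4.19 to 126.3 ± 5.05 CPM (0.88, adjusted p = 1.98e-11, standard error 0.05). DOCK1, the Rac exchange factor recruited by p130Cas and CRK, rose from 40.1 ± 0.32 to 71.1 ± 0.97 CPM (0.83, adjusted p = 3.03e-11, standard error 0.05). RASA1, a RasGAP, fell from 74.9 ± 1.28 to 51.7 ± 2.62 CPM (-0.53, adjusted p = 3.32e-08, standard error 0.05). The groups were separate in all 3. RASA1 missed the study's threshold with the replicate block and without siControl replicate 2, siControl replicate 3, siKMT9α#1 replicate 1 or siKMT9α#1 replicate 2.

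The partners of ILK and of zyxin and vinculin gave 0 calls at the study's threshold in edgeR, either way, among 5 and 7 genes tested, and 1 higher in each list with DESeq2. At an adjusted p under 0.05, as at an unadjusted one, the ILK complex had 2 higher and 2 lower (median 0.06). By both, the actin partners of zyxin and vinculin had 2 higher and 3 lower (median -0.04). At the adjusted p these are 80% and 71.4% of the genes tested in each list, beside 75.6% of all genes. Of 21 genes of RhoA signalling and actomyosin, 6 were higher and 2 lower at the study's threshold. That is 38.1%, beside 24.2% of all genes. At an adjusted p under 0.05, 7 were higher and 10 lower, which is 81% beside 75.6%, with a median of -0.07. ROCK1, a kinase through which RhoA acts on myosin, rose from 40.6 ± 2.26 to 78.2 ± 0.47 CPM (0.95, adjusted p = 9.55e-12, standard error 0.06). Its relative ROCK2 was at 97.5 ± 3.97 and 100.4 ± 1.69 CPM in overlapping groups (0.04, adjusted p = 0.427, standard error 0.05). The exchange factor ARHGEF12 rose from 40.6 ± 1.59 to 75.3 ± 2.74 CPM (0.89, adjusted p = 2.38e-11, standard error 0.06). MYL9, a myosin regulatory light chain, fell from 9.45 ± 0.49 to 1.95 ± 0.44 CPM (-2.31, adjusted p = 6.79e-11, standard error 0.15). Of the other regulatory light chains listed, MYL12A rose from 153.7 ± 4.90 to 262.3 ± 5.14 CPM (0.77, adjusted p = 1.57e-11, standard error 0.05). MYL12B fell from 344.8 ± 9.49 to 291.4 ± 16.3 CPM (-0.24, adjusted p = 0.000229, standard error 0.05). The exchange factor ARHGEF2 fell from 81.4 ± 4.10 to 52.6 ± 1.26 CPM (-0.63, adjusted p = 3.18e-09, standard error 0.05). The groups of ROCK1, ARHGEF12, MYL9 and ARHGEF2 did not overlap, and ARHGEF2 missed the study's threshold with the replicate block and without siControl replicate 2 or siKMT9α#1 replicate 2.

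**Figure D5:**
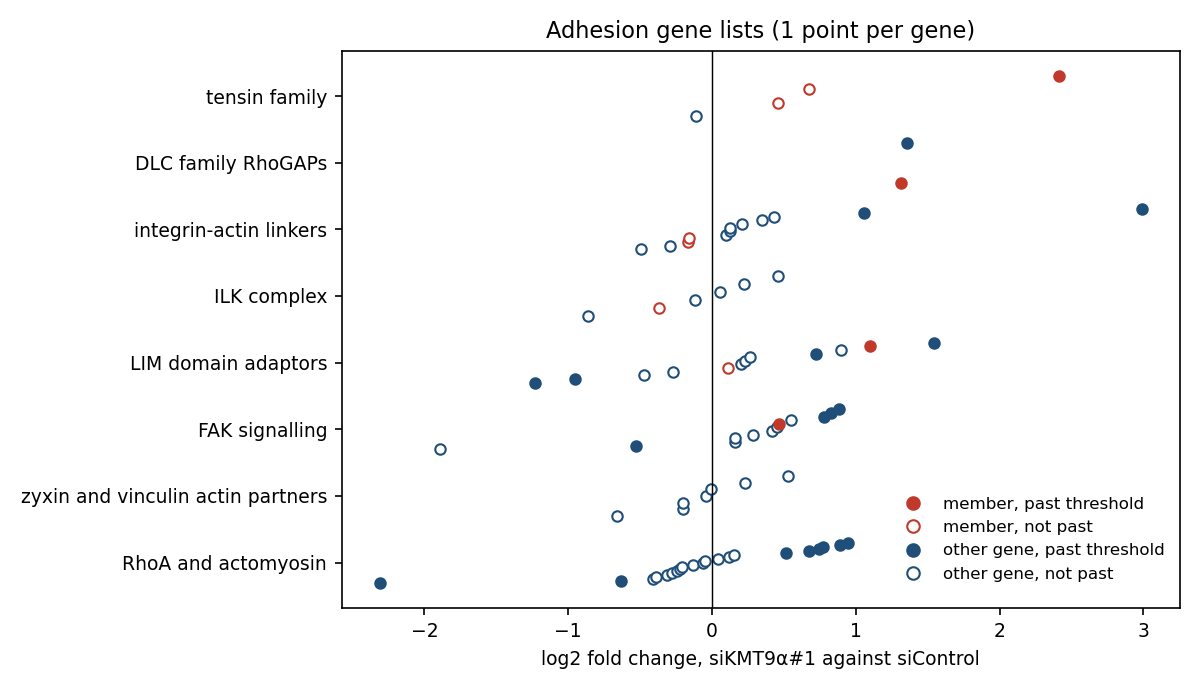
log2 fold change, siKMT9α#1 against siControl, of each listed gene that passed the filter, 1 row per gene list, with the 10 members in red and the others in blue, filled where past the study's threshold. KANK1 at 2.99 and TNS3 at 2.41 lie farthest to the right and MYL9 at -2.31 farthest to the left, and most points lie within 1 of 0.

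Patterns over the 6 samples were also compared by the root mean square difference of log2 CPM, centred on each gene's own mean, among genes with a mean of at least 5 CPM. The nearest to TNS3 among 10894 genes were GFRA1 (0.04), PGD (0.04) and LYST (0.05), of which PGD went from 118.2 ± 1.11 to 648.7 ± 10.4 CPM. WWC2, ALPK2 and SHTN1 (0.03 each) were nearest to TNS4. The nearest to TNS1 among 10895 genes, SELO (0.10), ADRA1B (0.10) and OSBPL7 (0.11), were farther from it, at the low counts of TNS1. With 2 groups of 3 samples, such likeness rests mostly on the size of the difference between the groups.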

How the data were processed

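RNA-Seq of 6 A549 samples was analysed, 3 with siControl and 3 with siKMT9α#1. The submitters' processing notes name STAR, HOMER, edgeR and build hg19. The authors deposited estimated counts per RefSeq transcript, not normalized, in steps of 0.5, with 36.4% of the values not whole. They also deposited a fold change (a linear ratio) and p-values of their own comparison, which were not used. HOMER's counting options, strand and library type are not given in the sources used here. Of 38767 rows, 1182 without symbol and counts were not used.

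Counts were rounded to whole numbers, 1 transcript per gene symbol, and fitted with edgeR 4.0.16 (TMM, filterByExpr, quasi-likelihood F test, R 4.3.3), with Benjamini-Hochberg adjustment over 13877 genes. The tests were two-sided, and the code was tested on simulated data. Calls used the study's threshold (P below 1e-08 and a log2 fold change over 0.26 in size) or an adjusted p under 0.05. With 3 samples a group an exact permutation p cannot fall below 0.1. The p-values measure the spread between these samples, with each gene's variance drawn towards that of other genes (median prior degrees of freedom 14.6). Replicates of a group differed by more than sampling noise (chi-square per gene 1.34 to 5.15, and 104.5 to 141.3 between groups). The gene spans printed are those deposited with the counts. Strands, exons, 3′ UTRs and GC content came from a GRCh37 annotation. Of the genes tested, 93.1% had a GC content, the others being set to the median.

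The members and gene lists were chosen with earlier results of these data known. Besides the members, the text names N6AMT1 and TRMT112, direct relatives of members, the 2 largest changes each way past the study's threshold per list, and the 3 nearest patterns per tensin. ROCK2, MYL12A and MYL12B stand beside ROCK1 and MYL9 and were not followed over the alternatives. TRMT112 was at 173.8 ± 11.5 and 133.7 ± 13.4 CPM (SD, n = 3 each), with a difference of -0.38 on the log2 scale (adjusted p = 2.93e-05, standard error 0.07). Alternatives were RLE factors, DESeq2 1.42.0, the longest transcript, a minimum of 10 counts in each sample, no filter, the library size alone, the replicate number as a block, GC and length offsets with and without the block, each sample left out, and, added after the data were seen, doubled counts in place of rounding.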

Additional observations from a re-analysis of the deposited data

How the results depend on the processing

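Over 16 alternatives, the log2 fold changes of the 10 members gave 160 values, of which 0 changed sign, 132 moved by less than the spread between replicates and 28 moved by more, mostly with the library size alone or GC and length offsets. Of 352 values of 22 other named genes, 343 kept their direction and their side of an adjusted p of 0.05. Of the rest, 8 lost that call and 1 changed sign. That was TNS2, whose log2 fold change was 0.048 without siKMT9α#1 replicate 2 and ran from -0.27 to 0.048 as each sample was left out. The size of a move was not scored for these genes, so this tally cannot be set beside that of the members. With GC and length offsets, LPP was at 1.11 and LPXN at 0.99, in place of 1.55 and 0.90. At the study's threshold, the 15 of these genes called had 240 values, of which 14 lost the call, 6 of PDLIM7, 5 of RASA1 and 3 of ARHGEF2, and the 7 not called gained it in 5 values. Of 64 values of the 4 members called, 8 lost it, all of PTK2, so that 3 members were higher there, and the 6 not called gained it in 5. With each sample left out, the members ran from 0.55 to 0.93 for TNS1, 2.38 to 2.44 for TNS3, 0.39 to 0.50 for TNS4, -0.19 to -0.13 for TLN1, -0.19 to -0.11 for VCL, 1.09 to 1.13 for PXN, 0.08 to 0.15 for ZYX, 0.45 to 0.50 for PTK2, -0.43 to -0.32 for ILK and 1.29 to 1.35 for DLC1. With the library size alone they were 2.30 for TNS3, 0.35 for TNS4, -0.26 for TLN1, -0.28 for VCL, 0.99 for PXN, 0.00 for ZYX, 0.36 for PTK2, -0.48 for ILK and 1.21 for DLC1, as the median over all genes went from -0.01 to -0.12. That scaling gave 1516 genes higher and 1862 lower at the study's threshold, against 1878 and 1479 with TMM, and at an adjusted p under 0.05, 4359 higher and 6212 lower against 5150 and 5342. With GC and length offsets they were 0.33 for TNS1, 2.12 for TNS3, -0.45 for TLN1, -0.41 for VCL, 0.29 for ZYX, 0.30 for PTK2, -0.20 for ILK and 1.04 for DLC1, and with the replicate block added 0.32, 2.13, -0.45, -0.41, 0.29, 0.30, -0.20 and 1.03. The GC content used for TNS1 and DLC1 is that of an annotated transcript with another start. Without the filter on low counts, 6070 genes passed the study's threshold in place of 3357. The number of members lower at that threshold, 0, was 1 without the filter and 2 with GC and length offsets, with or without the block. The number of other listed genes lower, 5, was 10 without the filter, 2 with the replicate block, 9 with the offsets and 8 with offsets and block, and 2 to 5 as each sample was left out. The causes were not tested. Same-numbered samples showed little shared deviation from the group means (correlations of -0.08, 0.02 and -0.08). These values cannot show whether the cultures were handled in pairs, which the labels do not state. The block gave 2344 genes at the study's threshold. Leaving out each sample gave 2326 genes (without siKMT9α#1 replicate 2) to 4084 genes (without siControl replicate 1). Counts limit TNS1, with 22 to 50 per sample.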
